A study of Mus musculus with 16 samples.

Results

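The 9 genes described here lie at most 67.4 kb from Sirt2 on mouse chromosome 7, and they were measured by RNA-seq in tumor-infiltrating lymphocytes (TILs) of Sirt2-/- and wild-type (WT) mice. They are Fbxo27, Fbxo17, Mrps12, Sars2, Nfkbib, Rinl, Hnrnpl, Ech1 and Lgals4, taken by gene name from the 55450 genes of the count table. They were picked with knockout and WT values of these same libraries in view, so those values are given below as a description, with no p-value. CD4+ and CD8+ TILs came from subcutaneous B16F10 tumors, a melanoma line of C57BL/6 origin, and each cell type of each genotype had 4 libraries (16 in all). Sirt2-/- mice carried the B6.129-Sirt2tm1.1Fwa/J allele in the germline, in every cell of the animal and not only in T cells, while WT mice were C57BL/6J. Mice were 7 to 8 weeks old with age- and sex-matched controls, per the study's methods. The Sirt2 deletion and any other sequence that travels with the targeted allele on chromosome 7 are shared by all 8 Sirt2-/- libraries, so their contributions to a level cannot be told apart here. Nothing in the labels links CD4+ and CD8+ libraries to the same tumor.

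Sirt2 encodes an NAD-dependent deacetylase. Genes that sit side by side on a chromosome need share no function, and these 9 belong to several unrelated families. Fbxo17 and Fbxo27 encode F-box proteins with an F-box-associated domain, the part of an SCF ubiquitin ligase that holds the substrate. Mrps12, Sars2 and Ech1 encode mitochondrial proteins. Nfkbib, Rinl, Hnrnpl and Lgals4 encode an NF-κB inhibitor, a regulator of Rab GTPases, a splicing factor and a galectin.

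Positions are those of GRCm38 with GENCODE mouse release 21, and every gene is protein coding. Fbxo27 (ENSMUSG00000037463.14, chr7:28692849-28699338, + strand) is the farthest from Sirt2, at 67.4 kb. Fbxo17 (ENSMUSG00000030598.15, chr7:28716804-28738144, + strand) follows at 28.6 kb. Mrps12 (ENSMUSG00000045948.8, chr7:28739641-28741820, − strand) and Sars2 (ENSMUSG00000070699.5, chr7:28741992-28753871, + strand) start back to back. Nfkbib (ENSMUSG00000030595.15, chr7:28758251-28767512, − strand) starts head to head with Sirt2 (chr7:28766735-28788661, + strand), and the annotated spans of the pair overlap by 778 bp, exons included. Rinl (ENSMUSG00000051735.7, chr7:28788969-28798963, + strand) begins 0.308 kb past the end of Sirt2. Hnrnpl (ENSMUSG00000015165.16, chr7:28808541-28822266, + strand), Ech1 (ENSMUSG00000053898.12, chr7:28825217-28832247, + strand) and Lgals4 (ENSMUSG00000053964.17, chr7:28833854-28841708, + strand) come next, at 19.9, 36.6 and 45.2 kb.

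Other genes share parts of these spans. Ccer2 overlaps Nfkbib by 718 bp on the opposite strand, and 12.6% of the 50-base stretches of Nfkbib transcripts also occur in another gene. The antisense gene Gm44702 lies inside Hnrnpl. Both Ccer2 and Gm44702 had 42 counts over all 16 libraries, against 20281 for Nfkbib and 152528 for Hnrnpl. The strand setting of the counting is not given in the sources used here, so how reads from the overlap of Nfkbib with Sirt2 were counted is not known. Lgals4 had no stretch shared on the reference, although some mouse strains carry a near-identical neighbor, Lgals6, that the C57BL/6 reference lacks.

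Promoter sequence was taken from RefSeq (GRCm38.p6), where all 10 genes, Sirt2 included, were matched. Printed below are stretches before the starts of the F-box pair, which held the highest knockout levels relative to WT. The short windows between the RefSeq starts of Mrps12 and Sars2 and of Nfkbib and Sirt2 follow. By GENCODE, the Nfkbib span reaches past the start of Sirt2 and holds the whole window of that pair. Whether either window acts for both of its genes was not tested. All stretches are given 5′ to 3′ on the + strand, with capitals where a motif matched.
Fbxo17, 250 bases before the start (chr7:28716540-28716789): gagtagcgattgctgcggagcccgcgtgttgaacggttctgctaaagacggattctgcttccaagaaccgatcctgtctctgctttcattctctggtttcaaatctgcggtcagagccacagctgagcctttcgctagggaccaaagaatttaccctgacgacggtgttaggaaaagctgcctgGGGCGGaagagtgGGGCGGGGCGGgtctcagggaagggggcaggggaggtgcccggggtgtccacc
Fbxo27, 250 bases before the start (chr7:28692599-28692848): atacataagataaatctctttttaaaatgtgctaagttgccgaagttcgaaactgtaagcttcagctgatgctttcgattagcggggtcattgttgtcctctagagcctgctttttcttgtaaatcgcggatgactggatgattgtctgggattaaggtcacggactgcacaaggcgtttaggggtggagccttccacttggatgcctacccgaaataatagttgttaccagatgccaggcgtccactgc
Mrps12 to Sars2, 146 bases between the starts (chr7:28741822-28741967): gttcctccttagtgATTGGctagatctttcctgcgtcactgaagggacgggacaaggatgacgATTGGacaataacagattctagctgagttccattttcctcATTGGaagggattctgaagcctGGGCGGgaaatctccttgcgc
Nfkbib to Sirt2, 107 bases between the starts (chr7:28766645-28766751): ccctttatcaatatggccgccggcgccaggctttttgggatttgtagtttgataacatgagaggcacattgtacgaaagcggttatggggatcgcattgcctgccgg

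Of 6 motifs searched on both strands, the GC box was taken as GGGCGG and the CCAAT box simply as those letters, CCAAT. An E-box was taken to be CACGTG in full, and a TATA box to be TATAAA. The ETS core was written for this search as CCGGAAG, and the cAMP response element was searched as TGACGTCA. The Fbxo17 window held 3 GC boxes, of which a pair overlaps by 1 base, and 32.7% of the 32851 mouse promoter windows of that length hold at least 1. Between Mrps12 and Sars2 there were 3 CCAAT boxes, read as ATTGG on the printed strand, and 1 GC box. Of windows of that length, 24.0% hold a CCAAT box and 28.4% a GC box. None of the 6 motifs matched in the Fbxo27 or the Nfkbib to Sirt2 window. G and C made up 58.8% of the Fbxo17 window and 45.6% of the Fbxo27 window, against a median of 52.4% over all promoters.

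The libraries held 28000949 to 62407851 counts. Genes with at least 1 count numbered 17730 to 22138 in 13 libraries and fewer in the other three, with 14411 in WT CD8+ replicate 1, 12587 in WT CD4+ replicate 1 and 8169 in Sirt2-/- CD4+ replicate 4. Sirt2-/- CD4+ replicate 4 listed Fbxo27, Mrps12, Sars2, Ech1 and Sirt2 at 0, and in WT CD8+ replicate 1 Fbxo27 was at 0. Fold changes and counts of calls are therefore also given over the fuller libraries, meaning the 13 that remain. The CD4+ and CD8+ libraries carried their own markers. Summed Cd4 and Zbtb7b stood at 390 to 697 counts per 1000000 counts (CPM) in CD4+ libraries and 0.806 to 11.9 in CD8+ libraries. Summed Cd8a and Cd8b1 stood at 15.1 to 67.0 CPM in CD4+ and at 1498 to 2029 CPM in CD8+ libraries. Melanoma markers summed to 1.54 to 11.5 CPM in CD8+ libraries and to 1.77 to 90.4 CPM in CD4+ libraries, the highest in WT CD4+ replicate 1. Stromal markers reached 59.2 CPM in Sirt2-/- CD4+ and 56.5 CPM in Sirt2-/- CD8+ libraries and at most 11.9 and 3.47 CPM in their WT counterparts, with ranges that overlapped. The 8 myeloid markers summed to 8.16 to 34.3 CPM (median 12.6) in Sirt2-/- and 2.29 to 8.95 CPM (median 6.81) in WT CD8+ libraries, and to medians of 13.6 and 7.76 CPM in CD4+ libraries. The 2 endothelial markers summed to 39.2 to 73.6 CPM (median 59.4) in Sirt2-/- and 37.1 to 45.0 CPM (median 38.5) in WT CD8+ libraries, and to 50.5 to 165 and 90.9 to 124 CPM in CD4+ libraries. These ranges overlapped too. In WT CD8+ replicates 1 to 3, among other libraries, 1 of the 2 endothelial genes was at 0, so the sum came from the other gene alone. The 4 epithelial markers summed to 104 to 180 CPM in Sirt2-/- and 139 to 184 CPM in WT CD8+ libraries. In CD4+ libraries they summed to 21.3 to 39.5 and 30.3 to 51.2 CPM, below every CD8+ library. What part other cells had in these sums and in the levels below was not tested. In bulk RNA, fewer cells that express a gene and less RNA per cell cannot be told apart.

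Sirt2 itself had 322 to 448 counts in Sirt2-/- CD8+ libraries and 1196 to 1703 in WT CD8+ libraries. In CD4+ TILs it had 553, 433, 469 and 0 counts in Sirt2-/- replicates 1 to 4 and 1681 to 2272 counts in WT libraries. Counts thus remained in 7 of the 8 Sirt2-/- libraries, the 0 being in the sparsest, and the groups did not overlap in either cell type. The log2 fold change was −2.22 ± 0.21 in CD8+ and −2.60 ± 1.26 in CD4+ TILs, or −2.03 ± 0.17 and −1.95 ± 0.18 over the fuller libraries.

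Fbxo17 showed the largest difference between genotypes among the 9 genes. In CD8+ TILs it stood at 14.5, 17.1, 10.4 and 19.9 CPM in Sirt2-/- replicates 1 to 4 and at 0.527, 2.17, 1.80 and 2.63 CPM in WT replicates 1 to 4. The lowest Sirt2-/- library was well above the highest WT library. Means were 15.5 ± 4.03 and 1.78 ± 0.902 CPM (SD, n = 4 each), a ratio of 8.68, and the edgeR log2 fold change was 3.13 ± 0.43 (SE). Without WT CD8+ replicate 1, it was 2.83 ± 0.26.

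The same gene in CD4+ TILs had 37.6, 25.4, 24.3 and 33.5 CPM in Sirt2-/- libraries and 20.4, 2.43, 4.82 and 2.27 CPM in WT libraries. Again no WT library reached a Sirt2-/- library, but WT replicate 1 came close. The log2 fold change of 2.13 ± 0.84 became 3.17 ± 0.32 without the libraries with few genes detected, with means of 29.1 ± 7.43 (SD, n = 3) and 3.17 ± 1.43 CPM (SD, n = 3). Fbxo17 was detected in the sparsest library, Sirt2-/- CD4+ replicate 4, with 2092 counts, its highest count of all.

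Fbxo27 was the lowest of the 9 genes per exon length in each of the 4 groups. Its CPM in CD8+ TILs were 1.70, 1.98, 0.663 and 2.12 in Sirt2-/- and 0, 0.344, 1.15 and 0.219 in WT libraries. These groups overlapped, since WT replicate 3 exceeded Sirt2-/- replicate 3, and the log2 fold change was 1.94 ± 1.03. The 0 in WT CD8+ replicate 1 allows up to 3 counts, or 0.093 CPM, for counting error only. Leaving out that library gave 1.54 ± 0.64, and leaving out WT replicate 3 gave 3.08 ± 1.13.

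In CD4+ TILs the values of Fbxo27 were 4.27, 3.52, 4.19 and 0 CPM in Sirt2-/- and 8.25, 0.899, 0.335 and 0.335 CPM in WT libraries. Both extremes fell in libraries with few genes detected. Over all 8 libraries the log2 fold change was 0.38 ± 1.70, and without those it was 2.89 ± 0.60, with means of 3.99 ± 0.413 (SD, n = 3) and 0.523 ± 0.326 CPM (SD, n = 3). Over the fuller libraries its direction was thus that of Fbxo17. Per kb of exon its level in Sirt2-/- CD4+ TILs was 0.978 ± 0.661 CPM, where Fbxo17 had 12.1 ± 2.58 CPM (SD, n = 4 each). Within a library, Fbxo17 had 5.79 to 15.7 counts per Fbxo27 count in the 7 Sirt2-/- libraries with both and 1.56 to 14.4 in the 7 WT libraries with both.

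**Figure D1:**
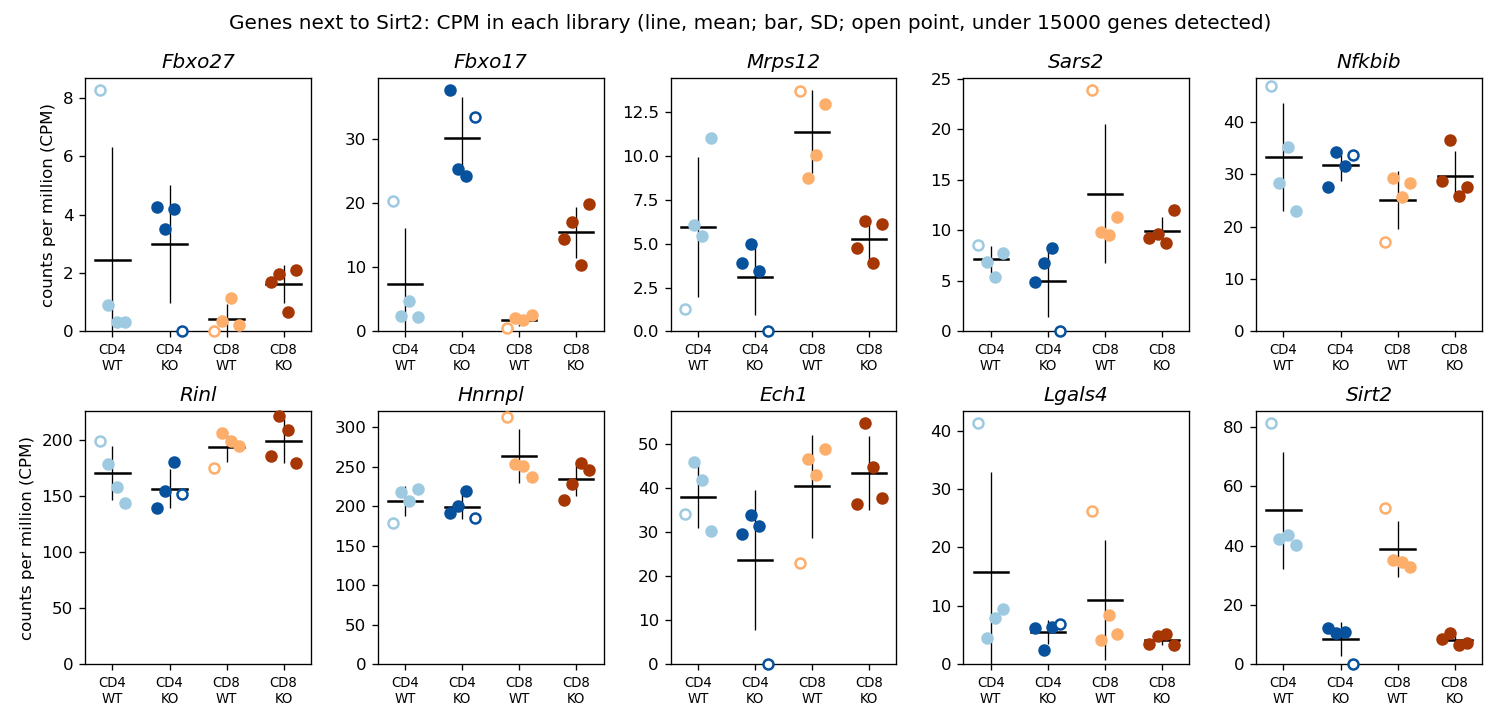
CPM (counts per 1000000 counts, linear axes from 0) of the 9 genes and Sirt2 in each of the 16 libraries, by group. Lines are means, vertical bars are SDs cut off at 0, and open points are the 3 libraries with under 15000 genes detected. Fbxo17 lies higher in Sirt2-/- than in WT libraries of both cell types, and Mrps12 lies lower in Sirt2-/- than in WT CD8+ libraries with no overlap.

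Mrps12, a protein of the small mitochondrial ribosomal subunit, showed the opposite direction. Its CD8+ values were 4.73, 6.32, 3.88 and 6.11 CPM in Sirt2-/- and 13.7, 8.74, 10.1 and 13.0 CPM in WT libraries. Every Sirt2-/- library was below every WT library. Means were 5.26 ± 1.16 and 11.4 ± 2.36 CPM (SD, n = 4 each), WT being 2.16 times higher, and the log2 fold change was −1.09 ± 0.25. It ranged from −1.19 to −0.96 when any 1 of the 8 libraries was left out.

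For CD4+ TILs, Mrps12 had 3.89, 4.99, 3.44 and 0 CPM in Sirt2-/- and 1.29, 6.09, 5.41 and 11.0 CPM in WT libraries. The groups overlapped through WT replicate 1 alone. The log2 fold change was −1.03 ± 1.54 over all libraries and −0.96 ± 0.40 over the fuller ones, when the groups no longer overlapped. Leaving out WT replicate 4 gave −0.42 ± 1.78, and leaving out Sirt2-/- replicate 4 gave −0.62 ± 0.72.

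Sars2, the mitochondrial seryl-tRNA synthetase whose start faces that of Mrps12, was at 9.21, 9.65, 8.78 and 12.0 CPM in Sirt2-/- and 23.8, 9.80, 9.52 and 11.3 CPM in WT CD8+ libraries. Only WT replicate 1, with few genes detected, stood apart. The log2 fold change was −0.43 ± 0.30 with it and −0.02 ± 0.18 without it. In CD4+ TILs the 6 fuller libraries held 4.87 to 8.28 CPM in Sirt2-/- and 5.34 to 7.74 CPM in WT, with a log2 fold change of −0.08 ± 0.33, where all 8 libraries gave −0.54 ± 1.46. Counts of the head-to-head pair can be set against each other within a library, where depth cancels. Sirt2-/- CD8+ libraries had 1.53 to 2.26 Sars2 counts per Mrps12 count, and WT CD8+ libraries had 1.74 in replicate 1 and 0.871 to 1.12 in the others.

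Ech1, a dienoyl-CoA isomerase of fatty acid oxidation, overlapped between genotypes in both cell types. In CD8+ TILs it was at 36.5 to 54.7 CPM in Sirt2-/- and 23.1 to 48.8 CPM in WT libraries, with a log2 fold change of 0.12 ± 0.22 (−0.07 ± 0.13 without WT replicate 1). In CD4+ TILs the Sirt2-/- libraries had 29.6, 33.9, 31.5 and 0 CPM and the WT libraries 34.1, 46.0, 41.8 and 30.2 CPM. The 0 was in the sparsest library, and the log2 fold change of −0.68 ± 1.29 became −0.35 ± 0.16 when the libraries with few genes detected were left out.

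The genes that touch Sirt2 on either side differed little. Nfkbib, which encodes the NF-κB inhibitor IκBβ, had 28.7, 36.6, 25.9 and 27.5 CPM in Sirt2-/- CD8+ and 17.1, 29.3, 25.6 and 28.3 CPM in WT CD8+ libraries. The ranges overlapped, and the log2 fold change was 0.26 ± 0.19, or 0.11 ± 0.13 without WT replicate 1. In CD4+ TILs Nfkbib gave −0.01 ± 0.36 over all libraries and 0.07 ± 0.17 over the fuller ones. There were 2.24 to 4.00 Nfkbib counts per Sirt2 count in the 7 Sirt2-/- libraries with Sirt2 counts and 0.325 to 0.865 in the 8 WT libraries. The knockout itself lowers the Sirt2 counts in this ratio, so nothing is read from it about Nfkbib.

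Rinl, a relative of the guanine nucleotide exchange factors of Rab5-type GTPases, had the smallest log2 fold change of the 9 in CD8+ TILs. Its 179 to 221 CPM in Sirt2-/- and 175 to 206 CPM in WT CD8+ libraries gave a log2 fold change of 0.06 ± 0.10 (0.01 ± 0.09 over the fuller libraries). The CD4+ libraries held 139 to 180 and 144 to 199 CPM, at −0.09 ± 0.16 (−0.07 ± 0.13). Hnrnpl, a splicing factor known for exon skipping in the CD45 transcript of T cells, stood at 208 to 255 CPM in Sirt2-/- and 238 to 313 CPM in WT CD8+ libraries, at −0.14 ± 0.11 (−0.05 ± 0.09). In CD4+ TILs it was at 186 to 220 and 179 to 222 CPM, at −0.04 ± 0.17 (−0.14 ± 0.13). Both genes overlapped between genotypes in each cell type.

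Lgals4, the gene of galectin-4, a lectin best known from gut epithelium, was at 3.43, 4.82, 5.18 and 3.38 CPM in Sirt2-/- and 26.2, 4.21, 8.37 and 5.23 CPM in WT CD8+ libraries. WT replicate 1 stood far above the rest. The log2 fold change of −1.36 ± 0.52 was −0.47 ± 0.29 without it. In CD4+ TILs the values were 6.27, 2.46, 6.43 and 6.87 CPM in Sirt2-/- and 41.2, 4.45, 7.98 and 9.53 CPM in WT libraries, where WT replicate 1 was again the highest. Here −1.42 ± 1.03 became −0.61 ± 0.44 without the libraries with few genes detected. Lgals4 was thus highest in the WT library with few genes detected in each cell type.

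Over all genes, edgeR's quasi-likelihood test with Benjamini–Hochberg adjustment called 1 of 15302 genes between genotypes in CD8+ TILs (0.00654%), which was Sirt2, and 0 of 15070 in CD4+ TILs (0%), where 190 had an unadjusted p under 0.05. The call of Sirt2 was lost without Sirt2-/- CD8+ replicate 1 or 4 (edgeR, adjusted p = 0.057 and 0.062), and 2, 4 or 7 genes were called without WT CD8+ replicate 2, 4 or 1. All 9 genes passed the filter on low counts and 0 of 9 were called in either cell type by this fit. Other fits called Fbxo17 in CD8+ TILs, namely DESeq2 (with Mrps12, where 0.322% of genes tested were called), limma-voom (0.0327%), edgeR with no filter on low counts (0.0181%) and edgeR over the fuller libraries (0.0439%). In CD4+ TILs Fbxo17 was called by limma-voom (0.0265%) and by edgeR over the fuller libraries (0.0374%). Sirt2-/- and WT CPM did not overlap for 2 of the 9 in CD8+ TILs (Fbxo17 above, Mrps12 below), against 2.93% of all genes tested, and for 1 of the 9 (Fbxo17) in CD4+ TILs, against 2.81%. Without the libraries with few genes detected these became 2 of 9 against 5.40% and 3 of 9 (Fbxo17, Fbxo27 and Mrps12) against 10.4%. Since the genes were chosen on this contrast, nothing is read from these counts.

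Other genes within 1 Mb of Sirt2 numbered 92, of which 43 were tested in CD8+ and 44 in CD4+ TILs. Their median log2 fold change was 0.02 in CD8+ TILs, beside 0.01 over all genes, and −0.12 in CD4+ TILs, beside −0.11. In CD8+ TILs 23 were higher and 20 lower in Sirt2-/-, and a size of at least 1 on the log2 scale was reached by 4, or 9.30%, beside 8.80% of all genes tested. For CD4+ TILs it was 11, or 25.0%, beside 16.1%. Over the fuller libraries 47 were tested in each cell type, with medians of 0.01 in CD8+ and −0.13 in CD4+ TILs, and a size of at least 1 was reached by 17.0% beside 6.25% in CD8+ and by 21.3% beside 10.2% in CD4+ TILs. With the 9 genes included and Sirt2 left out, the medians over all libraries were 0.03 and −0.11.

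Of those other genes, Zfp30, Zfp974 and Lrfn1 had the largest fold changes in CD8+ TILs, and the nearest lies 298 kb away. Zfp30, a zinc finger gene 995 kb away, had 114, 62, 98 and 82 counts in Sirt2-/- and 0, 16, 0 and 11 counts in WT CD8+ libraries, which did not overlap in CPM (log2 fold change 3.33 ± 1.14, or 2.93 ± 0.80 over the fuller libraries). In CD4+ TILs it had 106, 122, 175 and 0 counts in Sirt2-/- and 0, 32, 40 and 74 counts in WT (1.35 ± 1.81, or 1.35 ± 0.59). Zfp974, another zinc finger gene 837 kb from Sirt2, had 74, 27, 72 and 86 counts in Sirt2-/- and 53, 279, 265 and 205 counts in WT CD8+ libraries (−2.03 ± 0.52, or −2.33 ± 0.34 over the fuller libraries, where the groups did not overlap). In CD4+ TILs its log2 fold change was −1.90 ± 1.51, or −1.71 ± 0.47. Lrfn1, at 298 kb, was near the detection limit in CD8+ TILs, with 1 to 21 counts in Sirt2-/- and 0 to 41 in WT.

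**Figure D2:**
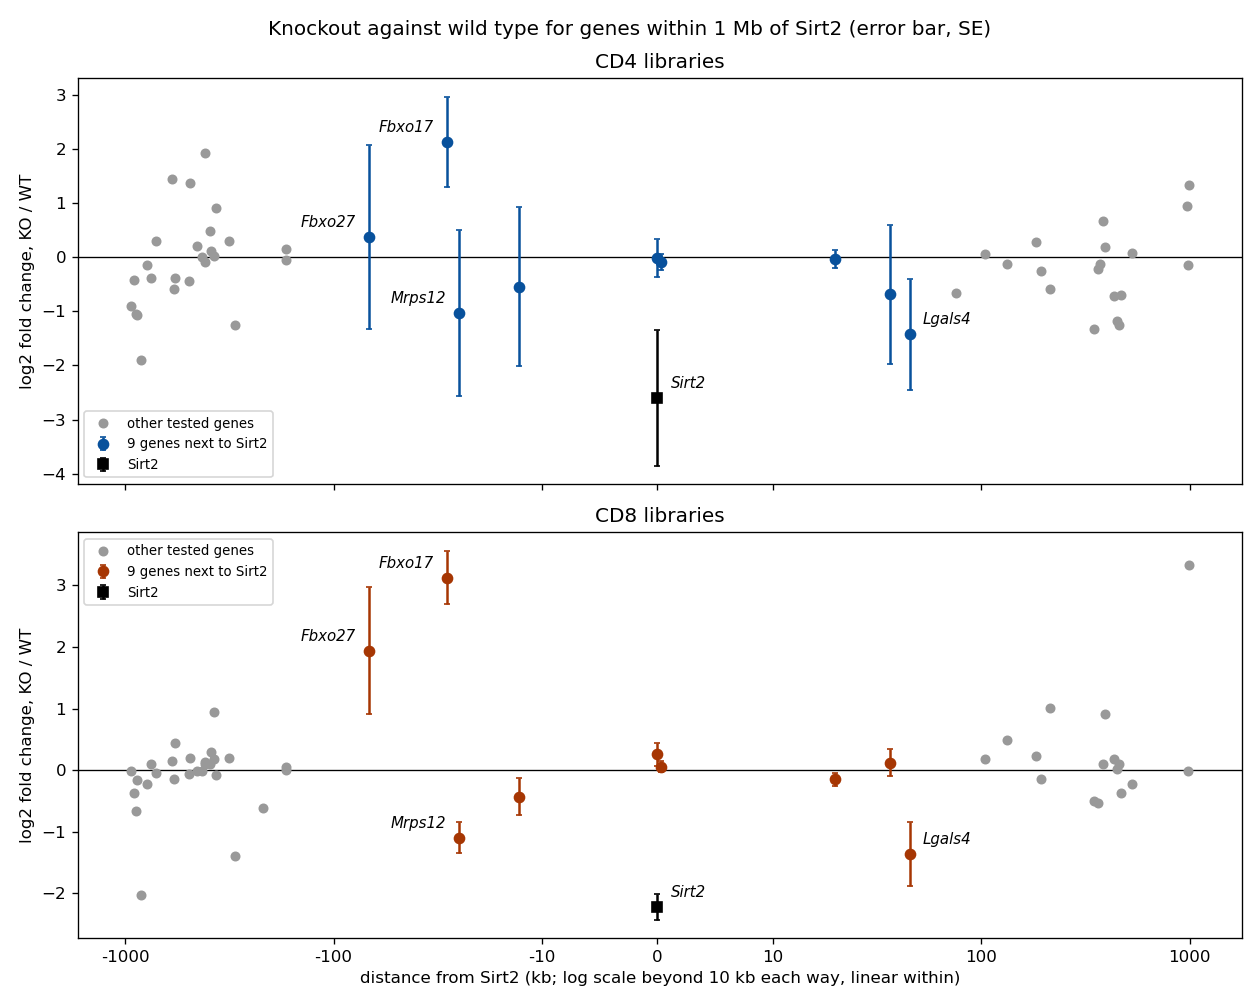
Log2 fold change of Sirt2-/- against WT for tested genes within 1 Mb of Sirt2, by distance in kb (log scale beyond 10 kb, linear within), in CD4+ (top) and CD8+ TILs (bottom). Colored points are the 9 genes with SE, the black square is Sirt2, and grey points are other genes. Fbxo17 at 28.6 kb is at 3.13 in CD8+ TILs, while Nfkbib and Rinl, which adjoin Sirt2, lie near 0, and Zfp30 at 995 kb is the grey point at 3.33.

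The genotype effect was also set against itself across the cell types, as the CD8+ minus the CD4+ log2 fold change in a model of all 16 libraries. Differences ranged from −0.10 for Hnrnpl to 1.61 ± 2.03 for Fbxo27. The difference for Fbxo17 was 1.01 ± 0.98, and over the fuller libraries it was −0.35 ± 0.40. For Fbxo27 it was then −1.35 ± 0.87, and for Mrps12 −0.05 ± 1.48 became −0.03 ± 0.46. The sign for Fbxo17 and Fbxo27 therefore depended on these libraries. Over all genes 0 of 17270 were called by edgeR, with 342 at an unadjusted p under 0.05.

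CD8+ against CD4+ TILs within a genotype did not enter the choice of the genes and could be tested. In WT, 0 of 9 were called while 11.9% of all genes tested were, and in Sirt2-/- 0 of 9 while 2.24% were. By unadjusted p under 0.05 there was 1 gene in WT (Fbxo17) and 2 in Sirt2-/- (Fbxo17 and Rinl). Over the fuller libraries only, 0 of 9 were called in WT against 28.0% of all genes, and 3 of 9 in Sirt2-/- against 25.4%. CD8+ and CD4+ CPM did not overlap for 2 of 9 in WT (Hnrnpl and Sars2, CD8+ higher), where 22.3% of all genes did not, and for 3 of 9 in Sirt2-/- (Ech1 and Sars2 higher, Fbxo17 lower), where 21.3% did not. Over the fuller libraries it was 3 of 9 in WT (Rinl joining them) against 43.6%, and 4 of 9 in Sirt2-/- (Fbxo27 joining them) against 36.5%.

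Fbxo17 was lower in CD8+ than in CD4+ TILs of Sirt2-/- mice, with every CD8+ library below every CD4+ library. Means were 15.5 ± 4.03 and 30.2 ± 6.45 CPM (SD, n = 4 each), and the log2 fold change was −0.99 ± 0.42 (edgeR, adjusted p = 0.397). Without CD4+ replicate 4 it was −0.90 ± 0.23 (edgeR, adjusted p = 0.0159). Over 15 alternatives the adjusted p ranged from 0.0159 to 0.855. In WT the log2 fold change was −2.03 ± 0.84 (edgeR, adjusted p = 0.160), −0.82 without CD4+ replicate 1 and −0.52 ± 0.43 over the fuller libraries (edgeR, adjusted p = 0.434), with 0.0425 to 0.481 over the alternatives.

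Rinl was higher in CD8+ TILs, at 199 ± 19.6 against 156 ± 17.3 CPM in Sirt2-/- (SD, n = 4 each), a log2 fold change of 0.34 ± 0.12 (edgeR, adjusted p = 0.276) that became 0.35 ± 0.11 without CD4+ replicate 4 (edgeR, adjusted p = 0.0348, and 0.0222 to 0.722 over the alternatives). In WT the fuller libraries gave 0.30 ± 0.10 (edgeR, adjusted p = 0.0525, and 0.0382 to 0.783 over the alternatives). Ech1 in Sirt2-/- gave 0.90 ± 1.32 with and 0.47 ± 0.14 without the CD4+ library that listed it at 0 (edgeR, adjusted p = 0.998 and 0.0274), and in WT 0.03 ± 0.25 (edgeR, adjusted p = 0.965).

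Sars2 and Mrps12 leaned the same way without passing the test. Sars2 had 13.6 ± 6.86 CPM in CD8+ and 7.12 ± 1.37 CPM in CD4+ WT libraries (SD, n = 4 each), with no overlap and a log2 fold change of 0.86 ± 0.40 (edgeR, adjusted p = 0.215). Over the fuller libraries it was 0.58 ± 0.27 in WT and 0.60 ± 0.23 in Sirt2-/- (edgeR, adjusted p = 0.141 and 0.0866), and the lowest adjusted p over the alternatives was 0.0419 in WT and 0.0866 in Sirt2-/-. Mrps12 gave 0.79 ± 0.59 in WT and 0.80 ± 1.35 in Sirt2-/- (edgeR, adjusted p = 0.471 and 0.998). Nfkbib, Hnrnpl, Lgals4 and Fbxo27 gave −0.44, 0.27, −0.54 and −2.47 in WT and −0.11, 0.23, −0.41 and −0.86 in Sirt2-/-, with adjusted p by edgeR from 0.309 to 0.998 over these 8 tests. For Fbxo27 in WT the sign turned to 0.10 ± 0.96 over the fuller libraries.

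**Figure D3:**
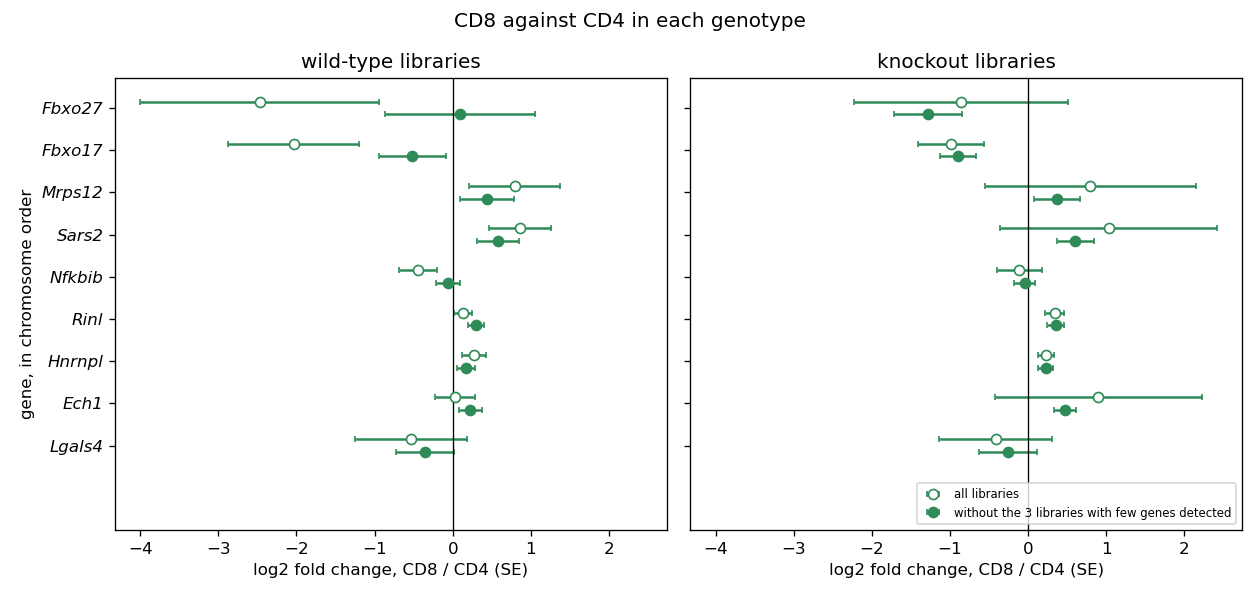
Log2 fold change of CD8+ against CD4+ TILs (x axis, ± SE) for the 9 genes in chromosome order, in WT (left) and Sirt2-/- libraries (right). Open points use all libraries and filled points leave out those with under 15000 genes detected. For Fbxo17 in WT the estimate moves from −2.03 to −0.52, whereas for Rinl in Sirt2-/- it is 0.34 and 0.35.

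Per kb of exon, Rinl and Hnrnpl were the highest of the 9 genes in every group. Rinl stood at 43.1 ± 4.77 to 54.8 ± 5.41 CPM per kb as group means (SD, n = 4) and Hnrnpl at 33.5 ± 2.49 to 44.3 ± 5.67 CPM per kb. The ranges of this pair did not overlap within a group, except in WT CD8+ TILs. Ech1 and Nfkbib came next, with ranges that overlapped each other in every group. By mean over all 4 libraries, Fbxo17 reached between them in Sirt2-/- CD4+ TILs. Fbxo17 had 12.1 ± 2.58 CPM per kb there and overlapped both Nfkbib and Ech1, while in WT CD8+ TILs it was at 0.713 ± 0.361 CPM per kb and overlapped Fbxo27, the lowest. Its place among the 9 by mean over all libraries was 4 in Sirt2-/- CD4+, 5 in Sirt2-/- CD8+, 7 in WT CD4+ and 8 in WT CD8+ TILs. The CD4+ places rested on libraries with few genes detected. In Sirt2-/- CD4+ replicate 4 Ech1 was at 0, while replicates 1 to 3 had 13.0, 14.8 and 13.8 CPM per kb. Fbxo17 had 15.1, 10.2 and 9.72 CPM per kb in those 3. In WT CD4+ replicate 1 Fbxo17 had 8.15 CPM per kb. In replicates 2 to 4 it had 0.909 to 1.93 and Sars2 1.61 to 2.34 CPM per kb.

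**Figure D4:**
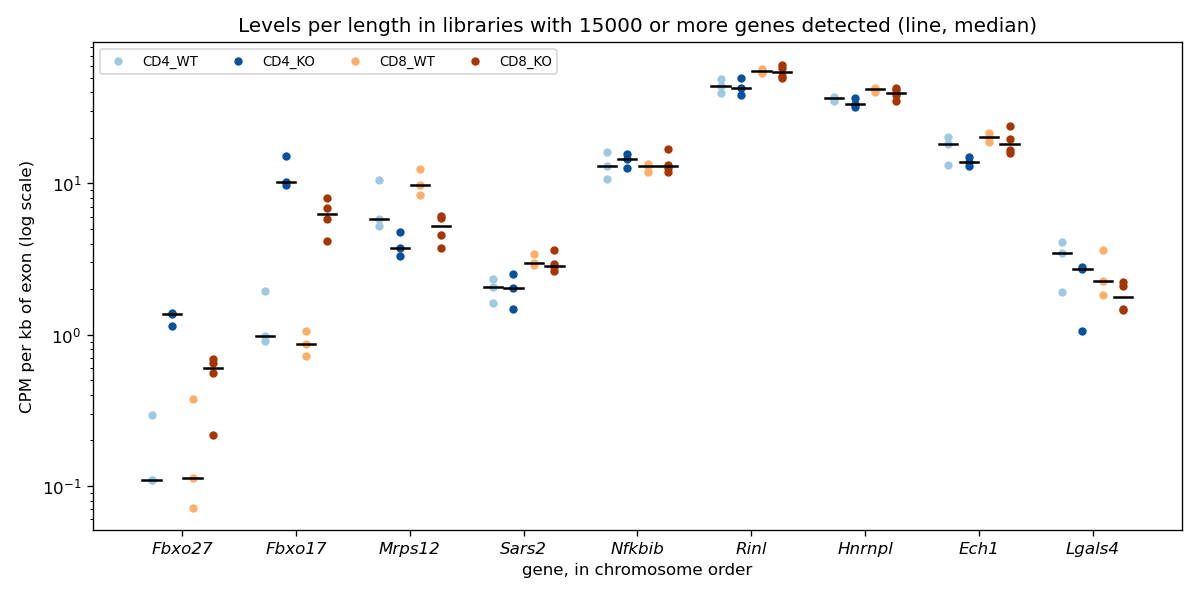
Level per exon length (CPM per kb, log axis) of the 9 genes in the 13 libraries with 15000 or more genes detected. Points are libraries, colored by group, and lines are group medians. Rinl and Hnrnpl are at the top and Fbxo27 at the bottom in every group.

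Relatives of the 9 genes by role were counted next. Between genotypes 0 members of any role list were called in CD4+ or CD8+ TILs over all libraries (edgeR): none of the 4 F-box relatives tested, 29 small mitoribosomal subunit genes, 22 mitochondrial tRNA synthetase and amidotransferase genes, 8 IκB family genes, 20 hnRNP genes, 10 fatty acid oxidation enzymes, 3 SCF subunits, 4 Rin family genes or galectins. Over the fuller libraries Fbxo17 was the only list member called, in both cell types. There 0.0439% of all genes tested were called in CD8+ and 0.0374% in CD4+ TILs. Fbxo17 was picked on this contrast, so nothing is read from that call. The small mitoribosomal subunit list, which holds Mrps12, had median log2 fold changes of −0.02 (CD8+) and −0.31 (CD4+ TILs), where all genes had 0.01 and −0.11. Its medians over the fuller libraries were −0.04 and 0.04, beside 0.01 and 0.00. The F-box list (Fbxo6, Fbxo17, Fbxo27 and Fbxo44, with Fbxo2 below the filter) had medians of 1.14 and −0.17, and of 0.88 and 1.44 over the fuller libraries. Its Fbxo17 and Fbxo27 were picked on this contrast, so nothing is read from these medians. Over the fuller libraries, Fbxo6 had log2 fold changes of 0.23 ± 0.17 in CD8+ and −0.01 ± 0.20 in CD4+ TILs. Those of Fbxo44 were −0.11 ± 0.39 and −0.03 ± 0.50. Fbxo6 was at 14.0 ± 3.08 CPM in Sirt2-/- and 11.3 ± 1.78 CPM in WT CD8+ TILs, and Fbxo44 at 1.99 ± 0.792 and 1.92 ± 0.578 CPM (SD, n = 4 each).

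Between the cell types some relatives passed the test in WT, where 11.9% of all genes tested were called. Of the IκB family 3 of 8 were called, all lower in CD8+ TILs, with Nfkbia, the gene of IκBα, at −1.28 ± 0.23 (edgeR, adjusted p = 0.00378). Of 20 hnRNP genes 6 were higher and 1 lower. The lower one was Hnrnpll, the paralog of Hnrnpl that also acts on the CD45 transcript, at −0.87 ± 0.15 (edgeR, adjusted p = 0.00345), while Hnrnpab was at 0.94 ± 0.19 (edgeR, adjusted p = 0.00715). Among tRNA synthetases Yars2, Gars and Kars were higher and Tars2 lower. Of the Rin family Rin2 and Rin3 were lower, and of the 29 mitoribosomal genes Mrps14 alone was called, higher. Fbxo6 was lower at −1.08 ± 0.30 (edgeR, adjusted p = 0.0389). In Sirt2-/-, where 2.24% of all genes tested were called, Hnrnpab and Lgals3bp were the ones called over all libraries, both higher in CD8+ TILs. The galectin list took every gene whose symbol starts with Lgals, and Lgals3bp is in it by its symbol alone.

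The call counts of these lists rested on the libraries with few genes detected, and a count over the fuller libraries was added after the data were seen. It was read against 28.0% of all genes called in WT and 25.4% in Sirt2-/-. Of the 29 mitoribosomal genes, 15 were then called in WT and 14 in Sirt2-/-, all higher in CD8+ TILs, and Mrps12 was not among them. Mrps14 was at 0.84 ± 0.14 in WT and 0.73 ± 0.13 in Sirt2-/- (edgeR, adjusted p = 0.00134 and 0.00242). The hnRNP list had 11 higher and 1 lower in WT and 9 higher and 1 lower in Sirt2-/-, Hnrnpll being the lower one in both. Of the IκB family 5 were lower in WT and 4 in Sirt2-/-, among them Nfkbia at −1.45 ± 0.16 and −0.99 ± 0.15 (edgeR, adjusted p = 8.26e-05 and 0.000839), and Nfkbib was in neither count. Of the 22 tRNA synthetase and amidotransferase genes, 3 were higher and 1 lower in WT and 6 higher and 1 lower in Sirt2-/-. Rin2 and Rin3 were lower in both genotypes, while Rinl was higher in Sirt2-/-. Of the galectin list, 4 of 8 tested were higher and 1 lower in WT, and 3 of 7 were higher in Sirt2-/-. Skp1a was higher in both genotypes. Fbxo6 was lower in WT, and in Sirt2-/- Fbxo17 was lower and Ech1 higher.

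Genes whose pattern over the 16 libraries was closest to that of Fbxo17 were sought among the 1018 of 17270 genes whose mean log2 CPM differed by at least 1 between genotypes in both cell types. By mean absolute difference of centered log2 CPM, they were Myof, Iigp1 and Gm33994, at 1.04, 1.07 and 1.07. A mean distance of 1 on this scale is a 2-fold difference per library. This is a description of libraries that share the same cells and depth.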

How the data were processed

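The authors deposited 1 table of raw read counts per gene for 16 RNA-seq libraries of CD4+ and CD8+ TILs, without normalization. Libraries were ribosomal RNA-depleted, stranded total RNA, and the submitters' processing notes name STAR, HTSeq and mm10, with no versions. All 55450 identifiers matched GENCODE mouse release 21. Counts were scaled to CPM by library total. Fold changes came from edgeR 4.0.16 in R 4.3.3 (TMM, filterByExpr, robust quasi-likelihood fit, two-sided test, Benjamini–Hochberg threshold of 0.05), fitted on all genes in each comparison of 4 against 4 libraries. DESeq2 1.42.0, limma-voom (limma 3.58.1), other filters, left-out libraries and a replicate block were alternatives. The test was checked on simulated counts in which 200 genes were changed by 2 on the log2 scale. With the dispersion of these libraries it recovered 13% of them between genotypes in CD4+ and 61.5% in CD8+ TILs. For CD8+ against CD4+ TILs it recovered 50.5% in WT and 18.5% in Sirt2-/-. A gene that was not called may therefore still differ. Per-length levels used exon length. The smallest chi-square per degree of freedom between replicates exceeded sampling noise, so all libraries were counted separately. The labels number 4 libraries per group without naming mice, and the study's methods give n = 4 per group. Reads had no molecular identifiers, so floors of 3 counts cover counting error only. The 9 genes, their role lists and the rules for named genes (overlapping genes, the 3 largest fold changes within 1 Mb in CD8+ TILs, called members of role lists, 3 genes most like Fbxo17) were chosen with earlier results of these data known.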

Additional observations from a re-analysis of the deposited data

Results flagged for a closer look

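Within groups of 4 libraries, Dixon's test at its 95% critical value was applied to the CPM of the 9 genes and Sirt2 and to the number of genes detected, 44 tests in all, of which about 2.2 would pass by chance. It marked 11 values, and 10 of them belong to the 3 libraries with few genes detected. In WT CD4+ replicate 1, Fbxo27 (8.25 CPM, others up to 0.899), Fbxo17 (20.4 CPM, others up to 4.82), Lgals4 (41.2 CPM, others up to 9.53) and Sirt2 (81.1 CPM, others up to 43.7) lay far above the other WT CD4+ libraries. In WT CD8+ replicate 1, Sars2 (23.8 CPM, others up to 11.3) and Sirt2 (52.8 CPM, others up to 35.1) were far above, and 14411 genes were detected where the others had at least 20105. In Sirt2-/- CD4+ replicate 4, Ech1 (0 CPM, others at least 29.6) and Sirt2 (0 CPM, others at least 10.6) were far below, with 8169 genes detected against at least 19159. The remaining value was Lgals4 in Sirt2-/- CD4+ replicate 2, at 2.46 CPM where the others had at least 6.27. No gene differed between genotypes in opposite directions in every library of the 2 cell types.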

How the results depend on the processing

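Between genotypes, genes called in CD4+ TILs numbered 0 in the reported fit, 6 with DESeq2, 4 with limma-voom and 6 over the 13 fuller libraries, and leaving out 1 library at a time gave 0. In CD8+ TILs, 1 became 55 with DESeq2, 5 with limma-voom, 5 without a filter, 7 without WT replicate 1 and 0 to 7 when leaving out 1 library. For CD8+ against CD4+ TILs in WT, 1765 became 3109 with DESeq2, 5504 with limma-voom, 4394 without the sparse libraries and 1022 to 2767 when leaving out 1. In Sirt2-/- TILs 354 became 658 with DESeq2, 4481 with limma-voom, 907 with at least 10 counts in every library, 4250 without CD4+ replicate 4 and 111 to 4250 when leaving out 1. Of the 9 genes, those called in WT went from 0 to 1 with DESeq2 (Fbxo17), where 3109 of 16126 genes tested were called. They went to 2 with limma-voom (Rinl and Sars2), where 5504 of 14892 were called. In Sirt2-/- they went from 0 to 3 with limma-voom (Rinl, Fbxo17 and Fbxo27), against 4481 of 15787 genes tested. They were also 3 without CD4+ replicate 4, against 4250 of 16703 (25.4%), and 0 to 3 when leaving out 1. Between genotypes, from 0 to 2 of the 9 genes were called in CD8+ and from 0 to 1 in CD4+ TILs. The 2 came with DESeq2, which called 55 of 17073 genes tested (0.322%). In CD4+ TILs the 1 came with limma-voom (4 of 15070, 0.0265%) and over the fuller libraries (6 of 16034, 0.0374%). Since the 9 genes were chosen on this contrast, nothing is read from these counts. Fitted without the sparse libraries, fewer libraries enter; the cause of the other shifts was not tested.

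Among the CD8+ against CD4+ comparisons, signs turned in WT for Fbxo27 (0.10 without the sparse libraries), Ech1 (−0.017 with the block, and −0.093 to 0.280 when leaving out 1 library) and Lgals4 (0.52 without CD4+ replicate 1), and in Sirt2-/- for Lgals4 (0.065 with limma-voom) and Sirt2 (0.61 with the block and −0.44 to 0.23 when leaving out 1 library). None of these values was called. Between genotypes, values crossed 0 for Sars2 (−1.03 to 0.14), Nfkbib (−0.10 to 0.15) and Hnrnpl (−0.14 to 0.08) in CD4+ and for Ech1 (−0.12 to 0.25) and Rinl (−0.01 to 0.11) in CD8+ TILs. The CD8+ minus CD4+ genotype effect crossed 0 for Fbxo17 (−0.35 to 1.30), Fbxo27 (−1.35 to 2.74), Mrps12, Sars2, Hnrnpl and Lgals4. Between genotypes, Fbxo17 stayed at 1.85 to 3.27 in CD4+ and 2.81 to 3.41 in CD8+ TILs over all alternatives, and Mrps12 at −1.38 to −0.42 and −1.19 to −0.96. With the replicate number as a block, 4 genes were called between genotypes in CD8+ TILs and 108 between cell types in Sirt2-/-. The deviations of same-numbered libraries had correlations of −0.07 to 0.08 between genotypes. Between CD4+ and CD8+ libraries they were 0.07 to 0.12 in WT, each positive, and −0.01 to 0.13 in Sirt2-/-. The labels do not say whether CD4+ and CD8+ libraries share a tumor. The numbers were therefore not taken to pair the libraries in the reported fits, and the block served as an alternative. Depth limits Fbxo27 most, with 0 to 41 counts in WT CD8+ libraries.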
